A study of Mus musculus with 10 samples.

Results

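Integrins and laminins are the cell-surface receptors and the sheet-forming proteins through which cells hold on to a basement membrane, and their genes are described here in cultured and freshly sorted mouse nephron progenitors. The members were chosen by name, as every non-control probe of the array whose gene name is that of an integrin alpha subunit, an integrin beta subunit or a laminin chain. This gave 51 of 55681 probes and 37 of 34607 gene names, namely 18 integrin alpha genes, 8 integrin beta genes and 11 laminin genes. Of these, 31 could be tested among 26253 genes in all, since each had a probe that exceeded background on every array of some group. They are 13 alpha subunits, all 8 beta subunits and 10 laminin chains.

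An integrin is a pair of one alpha and one beta subunit that binds a matrix protein outside the cell and anchors actin or keratin filaments inside it. A laminin is a trimer of one alpha, one beta and one gamma chain that self-assembles into the network of a basement membrane. In the embryonic kidney, mesenchymal nephron progenitors turn into polarised epithelium, and a laminin-containing basement membrane with its integrin receptors is laid down as they do so.

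Expression was measured on 10 single-colour Agilent arrays in 5 groups of 2. All cells came from mice with a Six2-GFP transgene on a mixed C57BL6J and ICR background, in which GFP reports Six2, a transcription factor that marks nephron progenitors. The groups called E11.5 progenitors and P0 progenitors hold sorted GFP-positive cells from embryonic kidneys of that day and from newborns, and the group called P0 non-progenitors holds the newborn cells without GFP. For the 8-day and 19-day cultures, sorted GFP-positive cells of E11.5 were grown in conditioned medium for that time. The newborn age is P0 in the labels and E19.5 in the names of the deposited tables, and P0 is used here. Whether a second sort followed the culture is not given in the sources used here. The labels also do not say whether replicates came from separate litters or cultures, so the p-values measure only the spread between these samples, which may be technical.

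Each value below is a level, given as the log2 intensity of 1 probe minus the 75th percentile of its array, so that 0 stands for the 75th percentile. Levels of different probes cannot be ranked against each other. A difference is the log2 change between 2 group means, and a gene was called higher or lower when its Benjamini-Hochberg adjusted p in limma was under 0.05. Of the spots on each array, 60.4% to 69.8% were well above background, and the number of arrays limits the precision. Slide 1 of the array slides held all freshly sorted cells and 8-day replicate 1, and slide 2 held 8-day replicate 2 and both 19-day arrays. A slide effect can therefore be separated from culture time only through the 8-day pair. Positions of probes are on mouse assembly mm9, as the array design gives them, and the exon or untranslated region that each probe lies in was not determined here.

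Gene signals of several members depended on the probe. For 2 of them, Itga6 and Itgam, the first 30 bases of the probes are shown before the values. Itga6, a laminin-binding alpha subunit, has 2 probes on chromosome 2 whose starts are 4123 bases apart, the tested one at chr2:71694756-71694815 and the other at chr2:71690633-71690692. Itgam, the alpha subunit of a phagocyte receptor, has 3 probes on chromosome 7, and its brightest, at chr7:135261755-135261814, opens with 10 copies of the CA pair in a row, marked in capitals.
Itga6 tested probe: gagaatgagaacctgggaggtcttgttgtt
Itga6 other probe: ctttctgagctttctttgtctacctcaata
Itgam tested probe: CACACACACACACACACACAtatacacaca
Itgam second probe: tgttaaccagacaggtgccctctaccagtg
Itgam last probe: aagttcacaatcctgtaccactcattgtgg

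Between them the 5 comparisons gave 31 calls of members, spread over 17 of the 31 tested genes, and 14 tested genes were called in none. Itga11 was called in 4 comparisons, and Itga1, Itga4 and Lama4 were called in 3 each.

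At birth, 7 of 31 tested members were lower in GFP-positive progenitors than in the GFP-negative cells around them (Itga1, Itga4, Itga6, Itgav, Itgb2, Itgb6 and Lama1), and 1 was higher (Itga11). Itga6 is counted on its tested probe and went the other way on its second. Among all genes tested, 4.15% were called lower and 4.23% higher in this comparison (8.38% either way), a split that moved from 50.5% higher among called genes to 36.9% with quantile normalization. The median change of the members was -1.05, and that of all genes was 0.10. With 1 array left out, whichever of the 4 it was, 3 to 5 members were called. The GFP-negative cells also carried markers of many other cell types. The summed intensity of 11 endothelial markers was 58.2 to 61.7 times the array's 75th percentile in GFP-negative cells and 5.89 to 7.18 in progenitors, with all 11 markers above background in the former and 6 to 9 in the latter. For 14 tubule and collecting duct markers the sums were 129.2 to 132.0 and 7.40 to 10.7, for 11 stromal and mural markers 150.8 to 157.2 and 10.2 to 14, and for 10 leukocyte markers 38.1 to 43.0 and 17.7 to 19.7. Most of the leukocyte sum in progenitors came from Csf1r, which read 4.19 and 4.08 there and 3.78 and 3.87 in GFP-negative cells. Of the 10 leukocyte markers, 6 were called lower in progenitors and none higher. The part of all these cell-type markers in the 8 calls was not tested. In such mixed samples fewer cells of a type and less RNA per cell cannot be told apart.

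From E11.5 to birth, 3 of 31 tested members were higher in GFP-positive progenitors (Itga11, Lama4 and Lamc1), where 2.03% of all tested genes were called higher and 1.92% lower (3.95% either way). None was called lower in limma, also at an unadjusted p under 0.05, while 8 were higher at that looser threshold. Without P0 progenitors replicate 1, 1 member was called, and without replicate 2 none was, with 7 members at an unadjusted p under 0.05 in limma. The median change of the members was 0.46 against -0.12 for all genes, and the median of the members was -0.02 with normexp background correction. Among all called genes 51.4% were higher, and 65.1% with quantile normalization. Of 14 tubule and collecting duct markers, 3 were higher in the same comparison, with 12 to 13 above background and sums of 7.40 to 10.7 in P0 progenitors against 8 to 9 and 3.01 to 4.82 at E11.5. Umod and Slc12a1, genes of the thick ascending limb, were above background on both P0 progenitor arrays and on neither E11.5 array. The part of these markers was not tested.

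After 8 days in culture, 2 of 31 tested members were higher than in the E11.5 cells (Itga4 and Lama4), where 2.76% of all tested genes were called higher and 2.04% lower (4.8% either way). None was called lower in limma, with 1 lower and 7 higher at an unadjusted p under 0.05. The median change was 0.39 for the members and 0.02 for all genes. With either of the 8-day arrays left out, only Lama4 was called. When only the 4 arrays of these groups were fitted, no member and no gene was called, with 3 members and 3950 genes under an unadjusted p of 0.05. Beside these calls, 3 of 7 tested muscle markers were higher, with summed intensities of 27.7 to 39.5 after 8 days against 7.95 to 9.42 at E11.5. Of 11 stromal and mural markers 4 were higher and 1 was lower, with sums of 36.4 to 41.6 against 16.0 to 23.6. Pf4, a platelet and macrophage chemokine gene, was above background on both 8-day arrays and on neither E11.5 array. Of 5 tested platelet and megakaryocyte markers, Pf4 among them, 1 was called higher and none lower. Of 10 leukocyte markers none was called higher and 1 was lower. The part of these markers in the calls was not tested.

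After 19 days in culture, 10 of 31 tested members were higher than in E11.5 progenitors (Itga1, Itga11, Itgav, Itgb1, Itgb5, Itgb8, Lama2, Lama4, Lamb1 and Lamc1), and 2 were lower (Itga9 and Itgam). Among all tested genes 7.23% were called higher and 9.59% lower. The median change was 0.58 for the members and 0.01 for all genes. With normexp correction the median of all genes shifted by -0.17, to -0.17, and the members then stood at 0.28. Without 19-day replicate 1, 8 members were called. With slide as a block, 6 of the 12 calls held (Itgam, Itgb1, Itgb8, Lama2, Lama4 and Lamb1), and Itga1, Itga11, Itga9, Itgav, Itgb5 and Lamc1 missed the threshold at adjusted p = 0.0676 to 0.181. Among the 6 that held, the fitted difference under the block was -1.36 for Itgam, 2.12 for Itgb1, 4.79 for Lama4 and 2.68 for Lamb1. It was 9.91 for Itgb8 and 7.30 for Lama2, against 5.29 and 4.66 without the block. The slide term rests on the 8-day pair alone. That pair read -2.01 and -6.63 for Itgb8, the second not above background, and 0.50 and -2.15 for Lama2. Itgb8 was above background on neither E11.5 array, so its 9.91 is not a measured difference. The 19-day arrays carried 8 of 11 stromal and mural markers at higher and 1 at lower level than at E11.5. Their summed intensities were 181.2 to 280.4 against 16.0 to 23.6. Of 11 nephron progenitor markers, 9 were at lower level. Of the stromal markers, Lum and Pdgfra, a matrix proteoglycan and a growth factor receptor of stromal cells, were not above background on either E11.5 array and were above it on both 19-day arrays. The part of these markers in the changes was not tested.

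Between 8 and 19 days, 5 of 31 tested members were higher (Itga1, Itga11, Itgb1, Lama2 and Lamb1) and 1 was lower (Itga4). Among all tested genes 2.67% were called higher and 5.4% lower (8.07% either way), and the share of higher genes among those called was 33.1%, or 44.2% with quantile normalization. The median change was 0.38 for the members and -0.01 for all genes. Without 8-day replicate 2, 2 members were called, and with either of the 19-day arrays left out, 1 was. Beside these calls, the summed intensity of the stromal and mural markers went from 36.4 to 41.6 after 8 days to 181.2 to 280.4 after 19 days, with 6 of 11 higher. That of the muscle markers went from 27.7 to 39.5 down to 10.9 to 15.8, with 2 of 7 lower, and 4 of 11 nephron progenitor markers were lower. Their part was not tested. Within slide 2, where 1 array of the 8-day culture meets both 19-day arrays, no member and no gene was called, with 13 members and 4767 genes under an unadjusted p of 0.05. The comparisons of both cultures and of P0 progenitors with E11.5 share the 2 E11.5 arrays, so their values stand side by side below and are not independent of each other.

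**Figure D1:**
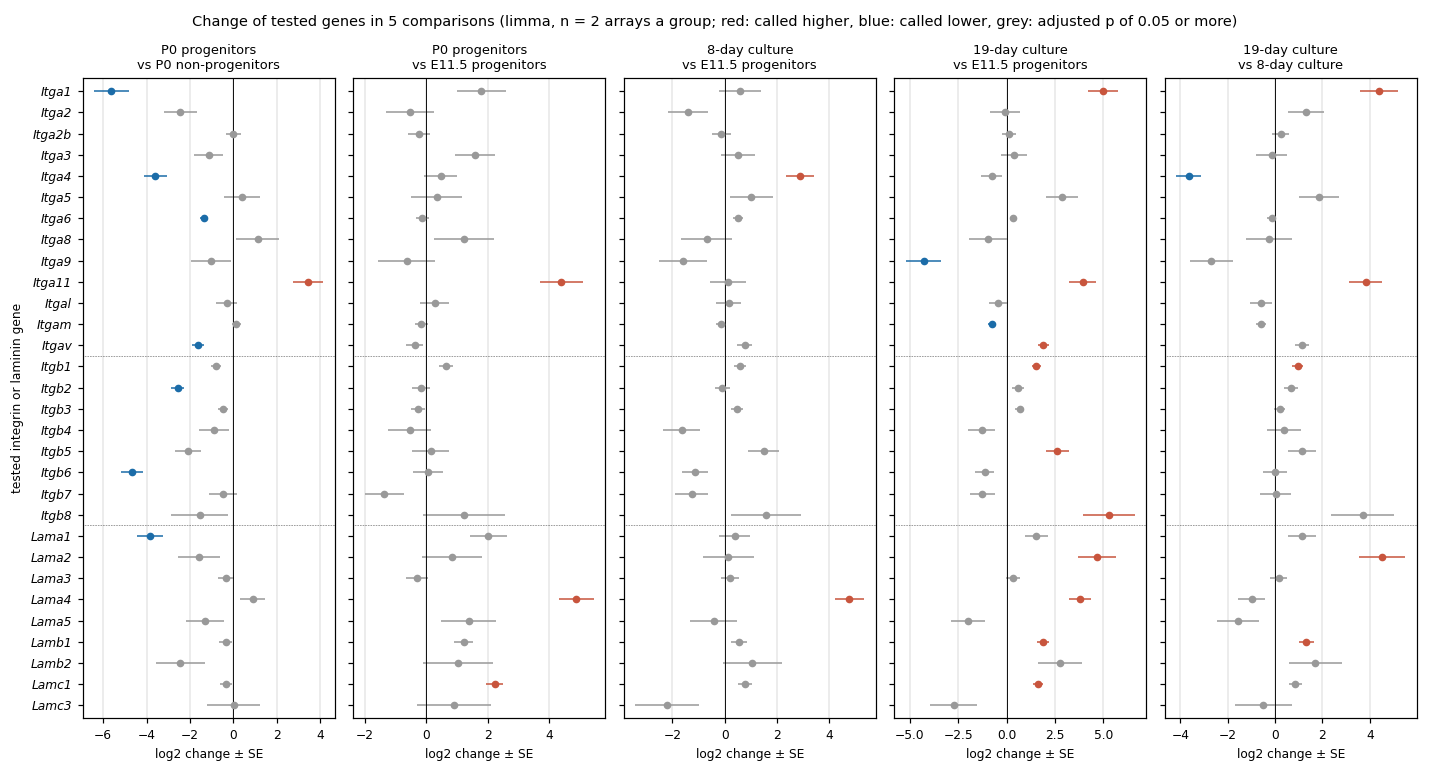
Difference of 30 of the 31 tested members (rows, integrin alpha, integrin beta and laminin genes from top to bottom) in the 5 comparisons, as log2 change with bars of 1 standard error from limma, n = 2 arrays a group. Red points were called higher and blue points lower, with 7 blue points in the newborn comparison and 10 red points after 19 days. Each panel has its own horizontal scale.

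Of the laminin alpha chains, Lama4, a chain of vessel walls and other mesenchymal basement membranes, showed its lowest levels in the starting cells. It read -0.63 and -2.06 in E11.5 progenitors, 3.07 and 4.0 in P0 progenitors, 2.89 and 2.40 in P0 non-progenitors, 3.93 and 2.91 after 8 days and 2.69 and 2.16 after 19 days (tested probe at chr10:38825794-38825853). Both E11.5 arrays lay below every other array. Lama4 was 29.5-fold higher in P0 progenitors than at E11.5 (log2 4.88, SE 0.57, limma adjusted p = 0.00838), 27.2-fold higher after 8 days (log2 4.77, adjusted p = 0.0084) and 13.6-fold higher after 19 days (log2 3.77, adjusted p = 0.00515). The calls in both cultures held with any 1 array left out, while the call at birth was lost without P0 progenitors replicate 2 (adjusted p = 0.0682). When only the arrays of the compared groups were fitted, the Lama4 calls against E11.5 at birth and in both cultures were all lost. P0 progenitors and P0 non-progenitors differed by 0.88 (SE 0.57, adjusted p = 0.453), which was not called.

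Lama2, the alpha chain of muscle and mesenchymal basement membranes that is mutated in a congenital muscular dystrophy, was highest in the 19-day culture. It read -1.47 and -0.45 in E11.5 progenitors, -1.15 and 0.88 in P0 progenitors, 1.29 and 1.6 in P0 non-progenitors, 0.50 and -2.15 after 8 days and 3.07 and 4.31 after 19 days (probe at chr10:26701380-26701439). The 19-day arrays lay above all others, and the 8-day arrays lay far apart from each other. Lama2 was 25.2-fold higher after 19 days than at E11.5 (log2 4.66, SE 0.98, limma adjusted p = 0.0178) and 23-fold higher than after 8 days (log2 4.52, adjusted p = 0.0329). The first of these calls was lost without E11.5 replicate 1 and without 19-day replicate 2 (adjusted p of up to 0.0862), and the second without 8-day replicate 2 or either 19-day array (up to 0.132). A second Lama2 probe, 126 bases away, read -6.39 and -5.84 in E11.5 progenitors, -2.17 and -0.55 in P0 progenitors, 0.88 and 1.35 in P0 non-progenitors, -0.05 and -0.88 after 8 days and 2.10 and 3.49 after 19 days. It was not above background on either E11.5 array and was above it on the other 8. On that probe, in a fit with every probe as its own feature, Lama2 was also called higher in P0 progenitors (at least 7.29-fold, adjusted p = 0.0139) and after 8 days (at least 13.5-fold, adjusted p = 0.00862), where the tested probe was not called. The tested probe was above background on both E11.5 arrays.

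Lama1, the alpha chain of the first embryonic basement membranes and of forming kidney tubules, was lower in P0 progenitors than in the cells around them. It read -4.46 and -3.19 in E11.5 progenitors, -1.55 and -2.07 in P0 progenitors, 1.58 and 2.50 in P0 non-progenitors, -3.73 and -3.15 after 8 days and -1.76 and -2.83 after 19 days (probe at chr17:68171924-68171983). Both GFP-negative arrays lay above all others, and the level on E11.5 replicate 1 was not well above background. The difference at birth was 14.4-fold (log2 -3.85, SE 0.59, limma adjusted p = 0.0101). It missed the threshold in 3 of 4 fits with 1 array left out (without either P0 progenitor array or P0 non-progenitors replicate 2, adjusted p of up to 0.0749). Lama5, the alpha chain of most mature epithelial basement membranes, ran from -2.02 to 3.94 over the arrays and was called in no comparison. Its highest levels, 3.92 and 3.94, were those of the GFP-negative cells. Lama3, an alpha chain of epidermal laminin, stayed between -1.57 and -0.71 on its tested probe, and its second probe was above background on 1 array only.

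Of the beta and gamma chains, Lamb1 and Lamc1, which most laminins contain, were both higher after 19 days than at E11.5. Lamb1 read 2.22 and 2.49 in E11.5 progenitors, 3.35 and 3.80 in P0 progenitors, 4.02 and 3.83 in P0 non-progenitors, 3.31 and 2.50 after 8 days and 4.47 and 3.99 after 19 days (probe at chr12:32014411-32014470). The E11.5 levels were the lowest of the 5 groups, and 8-day replicate 2 lay close to them. Lamb1 was 3.66-fold higher after 19 days than at E11.5 (log2 1.87, SE 0.31, limma adjusted p = 0.00697), a call that held with any 1 array left out. It was 2.50-fold higher than after 8 days (log2 1.32, adjusted p = 0.042), and this call was lost without 8-day replicate 2 or either 19-day array (adjusted p of up to 0.202). From E11.5 to birth its difference was 1.22 (adjusted p = 0.0794).

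Lamc1 read 1.87 and 1.55 in E11.5 progenitors, 3.82 and 4.04 in P0 progenitors, 4.26 and 4.28 in P0 non-progenitors, 2.25 and 2.71 after 8 days and 3.01 and 3.66 after 19 days (probe at chr1:155066156-155066215). The groups at birth were the highest and did not overlap with any other. Lamc1 was 4.65-fold higher in P0 progenitors than at E11.5 (log2 2.22, SE 0.26, limma adjusted p = 0.00855), which was lost without either P0 progenitor array (adjusted p of up to 0.0758). It was 3.08-fold higher after 19 days (log2 1.62, adjusted p = 0.00657), which held with any 1 array left out. With slide as a block this difference was 1.16 (adjusted p = 0.177).

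Lamb2 and Lamc3 were called in no comparison. Lamb2, a beta chain of the mature glomerular basement membrane, ran from -4.46 to 1.36, and its 2 E11.5 arrays read -4.46 and -1.15. Lamc3 was above background on 1 of 2 E11.5 arrays (-1.97, against -6.41 on the other) and on all 4 newborn arrays, and on no cultured array. Lamb3 was above background on no array and was not tested.

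**Figure D2:**
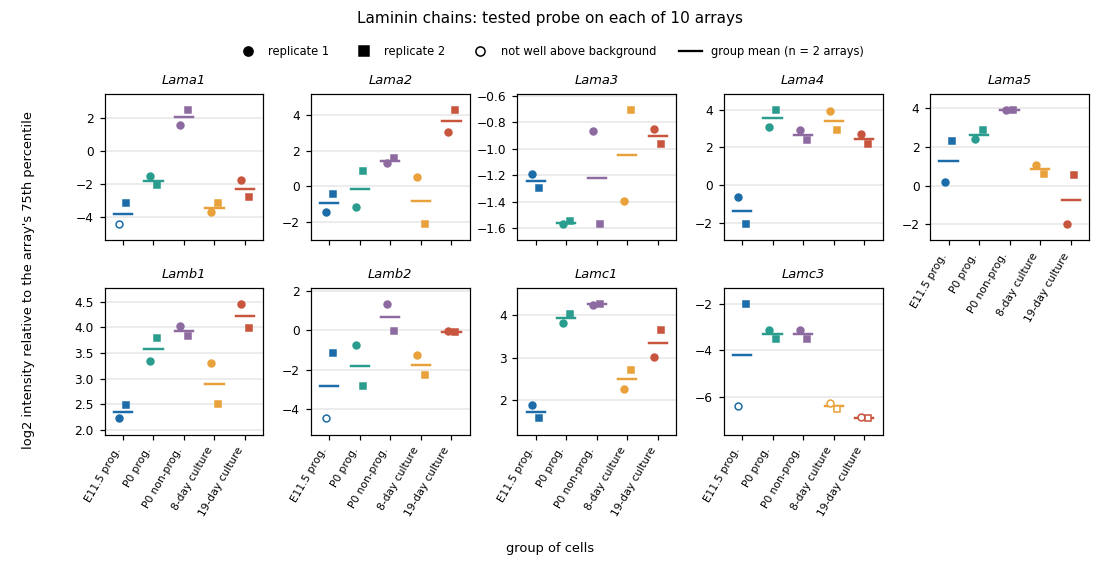
Level of the tested probe of each of 9 laminin chains on each of the 10 arrays, as log2 intensity relative to the array's 75th percentile, with circles for replicate 1, squares for replicate 2, open symbols where the probe was not well above background and a line at the mean of 2 arrays. Each panel has its own vertical scale. Lama4 was lowest at E11.5, Lama2 highest after 19 days and Lama1 highest in the newborn GFP-negative cells.

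Among the laminin-binding integrins, Itga6 gave opposite results on its 2 probes at birth. The tested probe read 2.22 and 2.73 in E11.5 progenitors, 2.39 and 2.30 in P0 progenitors, 3.75 and 3.67 in P0 non-progenitors, 2.91 and 3.04 after 8 days and 2.88 and 2.77 after 19 days. The other probe read 4.25 and 4.36 in E11.5 progenitors, 3.41 and 3.14 in P0 progenitors, 1.43 and 1.78 in P0 non-progenitors, 2.34 and 2.49 after 8 days and 1.83 and 1.73 after 19 days. On the first the GFP-negative cells were the highest group, and on the second they were the lowest together with the 19-day culture. The tested probe was 2.57-fold lower in P0 progenitors than in the GFP-negative cells (log2 -1.36, SE 0.20, limma adjusted p = 0.00834), a call lost with any 1 array left out (adjusted p = 0.0502 to 0.067). The other probe was 3.19-fold higher in the same comparison (log2 1.67, SE 0.19, adjusted p = 0.00365). It was lower than at E11.5 in P0 progenitors (log2 -1.03, adjusted p = 0.034), after 8 days (log2 -1.89, adjusted p = 0.00549) and after 19 days (log2 -2.52, adjusted p = 4.54e-04), where the tested probe differed by -0.13, 0.50 and 0.35 and was not called. With the 2 probes averaged, the difference at birth was 0.16 (adjusted p = 0.697). No direction for Itga6 as a gene can be given from these arrays.

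Itgb1, the beta subunit that pairs with most laminin and collagen receptors, was higher after 19 days. It read 1.5 and 1.54 in E11.5 progenitors, 2.20 and 2.11 in P0 progenitors, 3.00 and 2.90 in P0 non-progenitors, 2.39 and 1.81 after 8 days and 2.90 and 3.21 after 19 days (probe at chr8:131246349-131246408). Its E11.5 arrays were the lowest and its 19-day arrays overlapped only with the GFP-negative cells. Itgb1 was 2.90-fold higher after 19 days than at E11.5 (log2 1.54, SE 0.23, limma adjusted p = 0.00505), which held with any 1 array left out. It was 1.95-fold higher than after 8 days (log2 0.96, adjusted p = 0.0469), which was lost without 8-day replicate 2 or either 19-day array (adjusted p of up to 0.173). A second Itgb1 probe, 3732 bases away, was also called higher after 19 days than at E11.5 (log2 2.08, adjusted p = 0.0244), but not against 8 days (log2 1.06, adjusted p = 0.253).

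Itga3, a laminin-binding subunit of epithelia and podocytes, ran from -3.24 to 0.50 and was called in no comparison, with a difference of 1.58 between P0 and E11.5 progenitors (SE 0.66, limma adjusted p = 0.250). Itgb4, the partner of the Itga6 subunit in hemidesmosomes, ran from -2.82 to 0.35 and was called in none, and its E11.5 arrays spanned -1.78 to 0.35. Itga7, the laminin receptor subunit of muscle, was above background on 2 of 10 arrays, never on both of a group, and was not tested.

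Of the collagen-binding alpha subunits, Itga11, which binds fibrillar collagen, read -4.01 and -3.80 in E11.5 progenitors, 0.69 and 0.29 in P0 progenitors, -2.81 and -3.09 in P0 non-progenitors, -4.99 and -2.58 after 8 days and 0.20 and -0.13 after 19 days (probe at chr9:62631667-62631726). The arrays formed a high set, P0 progenitors and the 19-day culture, and a low set of all others, with no overlap. Itga11 was 10.8-fold higher in P0 progenitors than in GFP-negative cells (log2 3.44, SE 0.70, limma adjusted p = 0.0254) and was the only member called higher there. It was 21.0-fold higher in P0 than in E11.5 progenitors (log2 4.39, adjusted p = 0.0198), 15.3-fold higher after 19 days than at E11.5 (log2 3.94, adjusted p = 0.0095) and 14.1-fold higher than after 8 days (log2 3.82, adjusted p = 0.0178). Both newborn calls were lost with any 1 of their arrays left out (adjusted p = 0.0523 to 0.144). The call of 19 days against E11.5 was lost without 19-day replicate 1 (0.0555), and that against 8 days without either 19-day array (up to 0.0968). With slide as a block, the difference between 19 days and E11.5 was 1.53 and was not called (adjusted p = 0.176), and that between 19 and 8 days was 2.61 and still called (adjusted p = 0.0197). On 8-day replicate 1 the probe was not well above background.

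Itga1, which binds collagen of basement membranes and laminin, read -6.16 and -6.04 in E11.5 progenitors, -3.26 and -5.36 in P0 progenitors, 1.08 and 1.53 in P0 non-progenitors, -6.35 and -4.69 after 8 days and -1.52 and -0.73 after 19 days (probe at chr13:115756765-115758419). It was above background in the GFP-negative cells, the 19-day culture and 1 P0 progenitor array, and on no E11.5 or 8-day array. At birth it was 49.0-fold lower in progenitors than in GFP-negative cells (log2 -5.61, SE 0.79, limma adjusted p = 0.00721), which was lost without P0 non-progenitors replicate 2 (0.0541). After 19 days it was at least 8.57-fold higher than at E11.5 (adjusted p = 0.00623) and at least 8.43-fold higher than after 8 days (adjusted p = 0.0169). These are lower bounds, set against the lowest signal that was well above background. The first held with any 1 array left out, and the second was lost without 8-day replicate 1 or either 19-day array (up to 0.0736). With slide as a block neither 19-day difference was called (log2 3.32, adjusted p = 0.181, and log2 3.56, adjusted p = 0.0672). A second Itga1 probe was called in the same 3 comparisons and directions, at least 8.21-fold lower at birth and at least 3.53-fold and 3.47-fold higher after 19 days than at E11.5 and after 8 days. Itga2, a collagen receptor of epithelia and platelets, was above background in the GFP-negative cells only and was not called. Itga10, a collagen receptor of cartilage, was above background on 3 arrays, 1 each of the GFP-negative, 8-day and 19-day groups, and was not tested.

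Among the subunits that bind fibronectin, vitronectin and latent TGF-beta, Itgav, the alpha subunit of several receptors, was lower in P0 progenitors than in GFP-negative cells and higher after 19 days than at E11.5. It read 0.71 and 1.30 in E11.5 progenitors, 0.70 and 0.54 in P0 progenitors, 2.50 and 2.01 in P0 non-progenitors, 1.6 and 1.94 after 8 days and 2.76 and 3.05 after 19 days (probe at chr2:83646133-83646192). The P0 progenitor arrays were the lowest and the 19-day arrays the highest. The difference at birth was 3.11-fold (log2 -1.64, SE 0.29, limma adjusted p = 0.0154), which was lost without either P0 progenitor array or P0 non-progenitors replicate 1 (adjusted p of up to 0.102). The 19-day difference was 3.72-fold (log2 1.90, SE 0.29, adjusted p = 0.00522) and held with any 1 array left out, but not with slide as a block (log2 1.55, adjusted p = 0.133). A second Itgav probe, 2228 bases away, was called higher after 19 days as well (log2 2.25, adjusted p = 0.00907) and after 8 days (log2 1.78, adjusted p = 0.0487), where the tested probe differed by 0.77. At birth that probe differed by -1.56 and was not called (adjusted p = 0.0572).

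Its beta partners differed from one another. Itgb5, a vitronectin receptor subunit, read -1.87 and -0.19 in E11.5 progenitors, -0.82 and -0.97 in P0 progenitors, 1.00 and 1.40 in P0 non-progenitors, 1.1 and -0.18 after 8 days and 1.39 and 1.79 after 19 days (probe at chr16:33949123-33949182). The 19-day arrays lay above all E11.5 and P0 progenitor arrays. Itgb5 was 6.15-fold higher after 19 days than at E11.5 (log2 2.62, SE 0.60, limma adjusted p = 0.0249), which was lost without E11.5 replicate 1 or either 19-day array (up to 0.104) and with slide as a block (log2 3.90, adjusted p = 0.0678). Itgb8, which with the Itgav subunit activates latent TGF-beta, read -6.51 and -5.30 in E11.5 progenitors, -4.18 and -5.20 in P0 progenitors, -3.36 and -2.90 in P0 non-progenitors, -2.01 and -6.63 after 8 days and -0.13 and -1.10 after 19 days (probe at chr12:120401278-120401337). It was above background on no E11.5 array and on 1 of 2 8-day arrays. After 19 days it was at least 12.2-fold higher than at E11.5 (adjusted p = 0.0339), a call lost with any 1 array left out (adjusted p = 0.0675 to 0.157) and also without the intensity trend.

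Itgb6, the epithelial partner of the Itgav subunit, read -4.90 and -4.43 in E11.5 progenitors, -4.44 and -4.78 in P0 progenitors, 0.33 and -0.20 in P0 non-progenitors, -6.14 and -5.45 after 8 days and -5.30 and -6.28 after 19 days (probe at chr2:60438632-60443247). The tested probe was above background on the 2 GFP-negative arrays and no other. A second probe was above background on 1 P0 progenitor array as well. On the tested probe Itgb6 was at least 20.3-fold lower in P0 progenitors than in GFP-negative cells (limma adjusted p = 0.00256), and this held with any 1 array left out. On the second probe the difference was -2.71 and was not called (adjusted p = 0.0574). Itgb3, the vitronectin and platelet fibrinogen receptor subunit, stayed between 0.27 and 1.28 on its tested probe, while its dimmer second probe ran from -6.34 to -0.29, and neither was called.

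Itga5, the main fibronectin receptor subunit, ran from -4.35 to -0.06, with a difference of 2.87 between the 19-day culture and E11.5 (SE 0.84, limma adjusted p = 0.0564). Itga8, the receptor subunit for nephronectin that kidney mesenchyme needs for ureteric bud ingrowth, was above background on all 10 arrays. It read 1.14 and 2.13 in E11.5 progenitors, 2.64 and 3.09 in P0 progenitors, 1.53 and 1.98 in P0 non-progenitors, 1.23 and 0.64 after 8 days and -1.07 and 2.41 after 19 days and was called in no comparison. Its 19-day arrays were farther apart than any of its group means.

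The alpha subunits that bind fibronectin, VCAM1, tenascin and osteopontin at other sites, Itga4 and Itga9, had patterns of their own. Itga4, a receptor of migrating leukocytes and mesenchyme, read -4.35 and -3.73 in E11.5 progenitors, -3.33 and -3.83 in P0 progenitors, -0.59 and 0.63 in P0 non-progenitors, -1.27 and -1.06 after 8 days and -4.38 and -5.25 after 19 days (probe at chr2:79173193-79173252). The GFP-negative cells and the 8-day culture were high, and the other groups were lower and did not overlap with them. Itga4 was 12.1-fold lower in P0 progenitors than in GFP-negative cells (log2 -3.60, SE 0.53, limma adjusted p = 0.00841), which was lost without P0 progenitors replicate 2 or P0 non-progenitors replicate 2 (up to 0.0657). It was 7.33-fold higher after 8 days than at E11.5 (log2 2.87, adjusted p = 0.0295), where only 1 E11.5 array was above background. It was 12.5-fold lower after 19 days than after 8 days (log2 -3.65, adjusted p = 0.00835), where only 1 19-day array was. The 8-day rise was lost with any 1 array left out (adjusted p = 0.0539 to 0.0974), with slide as a block (0.0966), within slide 1 and with normexp correction, and the later fall without 8-day replicate 2 (0.0512). A second Itga4 probe was called lower at birth (at least 5.10-fold, adjusted p = 0.0491) and in neither culture comparison (log2 1.00, adjusted p = 0.675, and log2 -2.47, adjusted p = 0.222).

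Itga9 read 0.21 and 1.49 in E11.5 progenitors, 0.29 and 0.11 in P0 progenitors, 1.26 and 1.23 in P0 non-progenitors, -1.66 and 0.19 after 8 days and -2.13 and -4.73 after 19 days (probe at chr9:118807900-118807959). Both 19-day arrays lay below every array of the other groups. Itga9 was 19.4-fold lower after 19 days than at E11.5 (log2 -4.28, SE 0.92, limma adjusted p = 0.019), with 1 of the 2 19-day arrays above background. The call was lost without E11.5 replicate 2 or 19-day replicate 2 (up to 0.0821) and with slide as a block (log2 -6.13, adjusted p = 0.0676). Itgb7, a partner of the Itga4 subunit on lymphocytes, was called in no comparison, and 1 E11.5 array read 0.88 while the other 9 arrays lay between -1.83 and -1.03.

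Of the leukocyte and platelet integrins, Itgb2, the beta subunit that a family of leukocyte alpha subunits shares, was high in the GFP-negative cells. It read -1.48 and -1.05 in E11.5 progenitors, -1.43 and -1.44 in P0 progenitors, 1.14 and 1.12 in P0 non-progenitors, -1.27 and -1.44 after 8 days and -0.43 and -0.94 after 19 days (probe at chr10:77027978-77028037). The GFP-negative arrays stood above all others. Itgb2 was 5.92-fold lower in P0 progenitors than in GFP-negative cells (log2 -2.57, SE 0.30, limma adjusted p = 0.00327), and this held with any 1 array left out. Of 10 leukocyte markers 6 were lower in the same comparison, with all 10 above background in GFP-negative cells against 4 to 6 in P0 progenitors. Cd52 and S100a9, markers of lymphoid and myeloid cells, were above background in GFP-negative cells only. The part of leukocytes in this difference was not tested.

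Itgam, the alpha subunit of a phagocyte complement receptor, was called 1.67-fold lower after 19 days than at E11.5 (log2 -0.74, SE 0.20, limma adjusted p = 0.0427). Its tested probe read 8.51 and 8.41 in E11.5 progenitors, 8.31 and 8.29 in P0 progenitors, 8.11 and 8.23 in P0 non-progenitors, 8.01 and 8.63 after 8 days and 7.52 and 7.92 after 19 days. The 19-day arrays were the lowest. The array holds 24 probes with at least 10 CA or AC pairs in a row, and the Itgam probe is 1 of them. These 24 probes had a median difference of -0.73 between the 19-day culture and E11.5, with all 24 below 0 and a range of -0.90 to -0.63. The second Itgam probe read -2.60 and -2.75 in E11.5 progenitors, -2.10 and -2.77 in P0 progenitors, -2.72 and -2.62 in P0 non-progenitors, -2.81 and -2.63 after 8 days and -2.79 and -2.88 after 19 days. The remaining Itgam probe read -1.44 and -1.58 in E11.5 progenitors, -1.89 and -1.62 in P0 progenitors, -1.62 and -1.86 in P0 non-progenitors, -1.74 and -1.29 after 8 days and -0.82 and -1.17 after 19 days, and neither was called, with differences of -0.16 and 0.52 after 19 days. Without Itgam, the 19-day culture had 11 called members, 10 higher and 1 lower. The call was also lost without either E11.5 array or 19-day replicate 1 (adjusted p of up to 0.214).

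Itgal, the alpha subunit of the lymphocyte receptor for ICAM1, ran from -1.88 to -0.25 on its tested probe. Its other probes, 96 and 2449 bases away, were dimmer, with means of -4.72 and -5.34 over the arrays against -1.18. They were above background on only a few arrays each. Itga2b, the platelet fibrinogen receptor subunit, ran from -3.23 to -2.44, and neither gene was called. Itgad was above background on no array, Itgax on 1 and Itgae on 2, so that these leukocyte subunits were not tested.

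**Figure D3:**
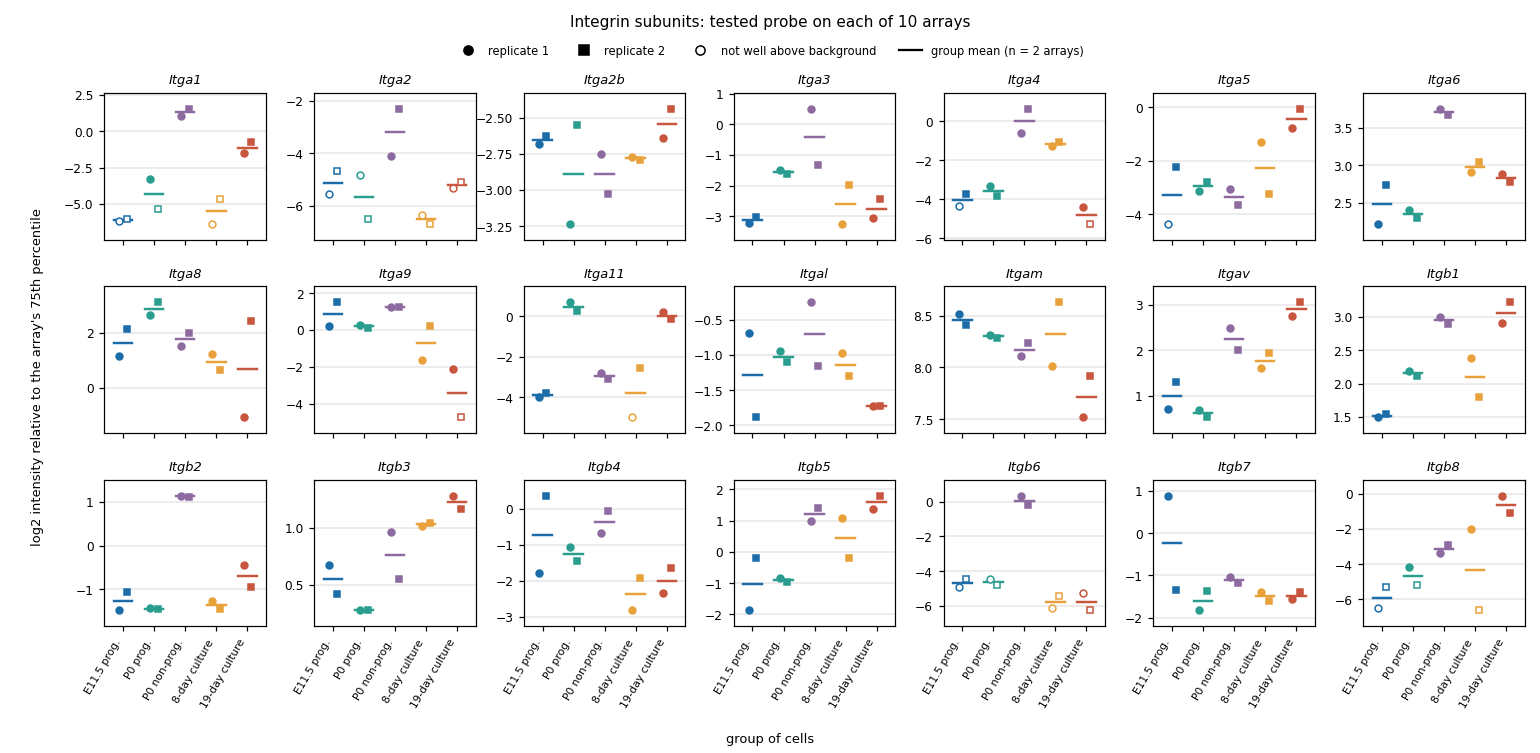
Level of the tested probe of each of 21 integrin subunits on each of the 10 arrays, as log2 intensity relative to the array's 75th percentile, with circles for replicate 1, squares for replicate 2, open symbols where the probe was not well above background and a line at the mean of 2 arrays. Each panel has its own vertical scale. Itga11 was high in P0 progenitors and the 19-day culture, Itgb2 and Itgb6 in the newborn GFP-negative cells, and Itga4 in the GFP-negative cells and the 8-day culture.

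**Figure D4:**
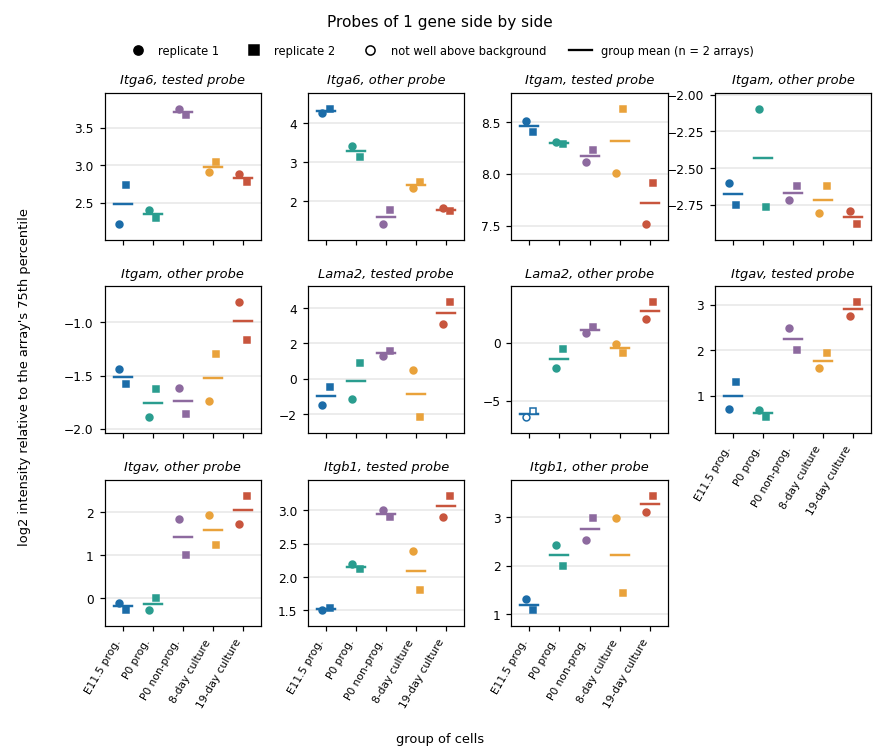
Level of every probe of Itga6, Itgam, Lama2, Itgav and Itgb1 on each of the 10 arrays, in the same units and symbols, each panel with its own vertical scale. The 2 Itga6 probes were called in opposite directions between the newborn groups. From E11.5 to either culture the other Itga6 probe was called lower and the tested one was not called. Both probes of Itgav and of Itgb1 are higher after 19 days than at E11.5.

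Other genes of the same adhesion machinery were read from 4 lists. Among all tested genes 16.8% were called either way after 19 days against E11.5, and 4.8% after 8 days. The shares were 8.07% between 8 and 19 days, 8.38% at birth and 3.95% from E11.5 to birth. The list of integrin ligands other than laminins held 20 genes, 17 of them found on the array under their listed names. Beside matrix proteins it holds the cell-surface proteins Vcam1, Icam1, Madcam1 and Cdh1. Cdh1 is also among the 14 tubule and collecting duct markers. Of the 17, 12 were higher after 19 days than at E11.5 and none was lower, also at an unadjusted p under 0.05 in limma. They included Col1a2, a chain of fibrillar collagen (248-fold), Col1a1 (153-fold), Spp1 or osteopontin (at least 70.4-fold) and Thbs2, a thrombospondin (at least 36.2-fold). Col1a1 and Col3a1 are also among the stromal markers given above. After 8 days 5 of the 17 were higher, with Col1a2 29.0-fold and Col3a1 19.6-fold up, and between 8 and 19 days 8 were higher, with Thbs1 36.2-fold up. At birth 8 of the 17 were lower in progenitors than in GFP-negative cells, among them Col3a1 (79.0-fold) and Col1a1 (26.0-fold), and 1 was higher, Vtn or vitronectin (6.66-fold), which was named after its value was seen. From E11.5 to birth 3 were higher, Tnc or tenascin (15.1-fold, above background on 1 E11.5 array), Fbn1 or fibrillin (6-fold) and Col1a2 (5.34-fold).

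Of 18 tested basement membrane partners of laminins, 6 were higher and 1 was lower after 19 days than at E11.5. Col15a1, a collagen at the outer face of basement membranes, was 36.4-fold higher, Nid1, which ties laminin to collagen IV, 21.5-fold, and the collagen IV chains Col4a2 and Col4a1 11.3-fold and 9.07-fold. The one that fell, Frem2 (7.03-fold), belongs to an embryonic basement membrane complex and was named after its value was seen. After 8 days 5 were higher and Frem2 was lower (5.15-fold). From E11.5 to birth 5 were higher in progenitors, led by Npnt, the nephronectin that binds the Itga8 subunit (46.5-fold), Col4a2 (6.85-fold) and Col4a1 (4.94-fold). At birth 6 were lower in progenitors than in GFP-negative cells, led by Col4a3 (at least 29.2-fold) and Col15a1 (32-fold). Between 8 and 19 days 5 were higher, with Nid1 11.3-fold up, and Fras1, which works with Frem2, was lower (4.51-fold).

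Of 26 tested cytoplasmic proteins that link integrins to actin, 8 were higher and 1 was lower after 19 days than at E11.5. Tln1 or talin was 6.15-fold higher, Tns1 or tensin 5.81-fold, Actn4, an actinin, 2.95-fold and Rsu1 2.95-fold. Ptk2, the focal adhesion kinase gene, was the 1 that fell (2.47-fold), and it was named after its value was seen. In the other comparisons between 1 and 3 of the 26 were called, where 3.95% to 8.38% of all tested genes were. Of 6 receptors for laminin that are not integrins, Sdc4 (13.5-fold), Sgce (4.26-fold) and Dag1 or dystroglycan (1.71-fold) were higher after 19 days and Rpsa (1.48-fold) was lower. Bcam, which binds Lama5, was 20.5-fold higher in P0 than in E11.5 progenitors, with Sdc4 (6.61-fold) and Dag1 (2.34-fold). After 8 days none of the 6 was called in limma, with 3 higher at an unadjusted p under 0.05.

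Promoter sequence was available for 8 of the 10 members called higher after 19 days, and a window from each of the 3 families is shown for what their starts hold. They come from RefSeq on assembly GRCm38.p6, run 5' to 3' on the gene's strand over the 250 bases before its start, and carry motif matches in capitals. Itga11 lies at chr9:62677605-62677854 on the plus strand, Itgb1 at chr8:128685404-128685653 on the plus strand and Lama2 at chr10:27616943-27617192 on the minus strand.
Itga11 promoter: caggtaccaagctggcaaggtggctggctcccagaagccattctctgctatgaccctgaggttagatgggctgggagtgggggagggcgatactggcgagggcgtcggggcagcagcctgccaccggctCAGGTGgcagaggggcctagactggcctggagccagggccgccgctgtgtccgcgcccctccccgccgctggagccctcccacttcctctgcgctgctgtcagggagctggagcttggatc
Itgb1 promoter: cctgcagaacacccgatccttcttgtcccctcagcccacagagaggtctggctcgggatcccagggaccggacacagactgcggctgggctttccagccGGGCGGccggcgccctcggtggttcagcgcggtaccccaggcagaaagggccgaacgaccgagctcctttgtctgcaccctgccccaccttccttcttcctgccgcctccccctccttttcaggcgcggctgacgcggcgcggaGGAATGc
Lama2 promoter: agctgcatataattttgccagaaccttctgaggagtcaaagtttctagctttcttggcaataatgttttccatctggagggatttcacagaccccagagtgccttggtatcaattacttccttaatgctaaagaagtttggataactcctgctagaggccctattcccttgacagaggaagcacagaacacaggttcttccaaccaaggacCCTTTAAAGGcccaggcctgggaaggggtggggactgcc

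The capitals in Itga11 are an E-box of the ZEB and Snail type (CAGGTG) 121 bases before the start. Those in Itgb1 are an SP1 motif (GGGCGG) and a TEAD motif (GGAATG), 151 and 7 bases before it, and those in Lama2 are a CArG box, the motif of serum response factor, 39 bases before it. Both strands were searched, and a CArG box can contain a TATA motif, which then counts under both. Over the 8 risers the SP1 motif was found in 3, the E-box in 3, TEAD in 1 and the CArG box in 1, and 2 held no motif searched. Among 26 windows of 23 members, 9 held SP1 against 32.7% of 32851 mouse windows, 8 the E-box against 17.2%, 3 TEAD against 12.6%, 2 the CArG box against 1.47%, 1 AP-1 (TGANTCA) against 6.75% and none the TATA box (TATAAA, 12.4%), the ETS motif (CCGGAAGT, 2.88%) or the SMAD motif (GTCTAGAC, 0.167%). These matches describe letters in short windows and no binding was measured.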

How the data were processed

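RNA of 10 samples was amplified (Ovation Pico WTA V2), labelled with Cy3 and hybridised to Agilent arrays, per the labels' protocols. Per the file headers, the deposited intensity values came from Feature Extraction 11.5.1.1, with background subtraction and detrending inside each array and no step that makes arrays comparable. One newborn progenitor table (replicate 2) carries only 3 significant digits and altered gene names, so probe names were read from an E11.5 array. Control and outlier spots were left out, values were taken as log2 minus the array's 75th percentile, spots of a probe were averaged, and each gene was read from its probe with the highest mean. Genes with a probe well above background on both arrays of a group entered limma 3.58.1 (R 4.3.3, intensity trend, 5 group means over 10 arrays, two-sided, Benjamini-Hochberg over 26253 genes). The fit was tested on simulated data. Folds against a group with no array above background are lower bounds. Members are those the name rule gives, and 1 of them is not reported here although the counts include it. From each other list the text names up to 4 called genes with the largest change. The members and lists were chosen with earlier results of these data known. The alternatives tried were another background correction, quantile normalization, other filters, the mean of probes or each other probe, no trend, slide or replicate blocks, single slides, only the compared groups, and leaving out each array.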

Additional observations from a re-analysis of the deposited data

Results flagged for a closer look

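The changes of 6 members from their E11.5 level differed between the culture times by the direct test of 19 against 8 days in limma. Higher at the later time were Lama2 (log2 4.52), Itga1 (log2 4.40 as fitted, at least 8.43-fold), Itga11 (log2 3.82), Lamb1 (log2 1.32) and Itgb1 (log2 0.96). Lower was Itga4 (log2 -3.65). All 6 compare a culture time that spans both slides with one that lies on slide 2, and the cause was not tested.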

How the results depend on the processing

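Of the 31 calls of members, 12 held under every alternative in which they were tested, other than leaving out arrays and reading another probe. The filter on all arrays tested only 17 of the 31 calls. Among the 12 it left out those of Itga1, Itga11, Itga4, Itgb6 and Lama1. Of the 12, Itgav and Itgb6 at birth missed the threshold on another probe, and the other 10 were not lost that way. Among those 10, the calls of Itga11, Itgb2, Lama1, Lamb1 and Lamc1 had no other probe to test. Over all 31 calls, 15 had another probe tested, and 7 of those were lost or reversed on it. Only Itgb2 and Itgb6 at birth and Itgb1 and Lamb1 after 19 days against E11.5 among the 12 also held with any 1 array left out. There were 3 reversals: Itga6 at birth with probes averaged (0.16) or on its other probe (1.67, chosen after seeing the data), and Itgam after 19 days on its last probe (0.52). The cause was not tested except where a setting tests fewer genes or arrays.

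For newborn progenitors against GFP-negative cells (8 members and 2201 genes called), 3 members and 1440 genes were called with the filter on all arrays, which leaves fewer genes, 1265 genes without the intensity trend and 13 members with the compared groups alone. With 1 array left out the counts ran from 3 to 5 members and 609 to 862 genes. For newborn against E11.5 progenitors (3 and 1036), 447 genes were called without the trend, 434 with the compared groups alone, and 0 to 4 members and 118 to 870 genes with 1 array left out. At the 0, without P0 progenitors replicate 2, all 3 members missed the threshold, with 7 members at an unadjusted p under 0.05 in limma.

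For 8 days against E11.5 (2 and 1261), 1 member was called with normexp, with the filter on all arrays, with slide as a block (631 genes) and within slide 1 (683 genes), 540 genes without the trend, 0 members and 0 genes with the compared groups alone, and 1 to 2 members and 368 to 887 genes with 1 array left out. For 19 days against E11.5 (12 and 4417), the slide block left 6 members and 1485 genes, the compared groups alone 6 and 1297, and 1 array left out 8 to 12 and 2373 to 3390. For 19 against 8 days (6 and 2119), 3 members and 760 genes were called without the trend, 0 and 0 within slide 2 and with the compared groups alone (9 members and 4987 genes at an unadjusted p under 0.05 in limma in the latter), and 1 to 7 and 827 to 1763 with 1 array left out.

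Deviations of same-numbered arrays correlated at -0.01 to 0.03 between groups. This cannot show whether same-numbered samples came from the same animals, which the labels do not give. The replicate block kept 28 of the 31 calls, with 3 members called between 8 and 19 days. Signal near background leaves only lower bounds for Itga1 and Itgb8 after 19 days and for Itgb6 at birth.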

Other observations

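Some members differed widely between the 2 arrays of a group. Itgb7 read 0.88 and -1.34 at E11.5, Lamc3 -6.41 and -1.97 at E11.5, Itgb8 -2.01 and -6.63 after 8 days and Itga8 -1.07 and 2.41 after 19 days. Of the members that were not tested, Itgae read -1.67 on E11.5 replicate 1, Itgax -3.11 on P0 non-progenitors replicate 1 and Itga10 -1.05 on P0 non-progenitors replicate 2.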
